A study of Homo sapiens with 8 samples.

Results

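A set of 10 genes of the cell cycle transcription programme were followed in MP38, a BAP1-mutant uveal melanoma (UM) cell line: the E2F factors E2F1, E2F2, E2F3, E2F4, E2F5, E2F7 and E2F8, together with MYBL2, FOXM1 and LIN9. They were taken by name from the count table, with earlier results of these data known, and make up 10 of its 35238 gene symbols. All 10 passed the filter on low counts, as did 15085 symbols in all. MP38 cells were grown for 24 h in 0.1% DMSO alone (control), or in 0.1% DMSO together with romidepsin at 40 nM, quisinostat at 40 nM or mivebresib at 1200 nM. Histone deacetylases (HDAC) are the targets of romidepsin and quisinostat, and mivebresib is an inhibitor of BET bromodomain proteins. Each of the 4 groups had 2 bulk RNA libraries from separate wells of this 1 line, so the spread between them is that between wells of one culture system. The dose of mivebresib differed from that of the HDAC inhibitors.

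E2F factors bind the promoters of genes needed for DNA replication, most of them as dimers with a DP protein. E2F1, E2F2 and E2F3 activate these genes once cyclin-dependent kinases have released them from the retinoblastoma protein RB1, whereas E2F4 and E2F5 act mainly as repressors with the related pocket proteins, and E2F7 and E2F8 repress without a DP partner. In resting cells E2F4 or E2F5, a pocket protein and the MuvB core, which contains LIN9, form the repressive DREAM complex. In cycling cells the MuvB core instead joins MYBL2 (B-MYB) and then FOXM1 to activate genes of G2 and mitosis through a promoter element called CHR.

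RefSeq promoter windows on GRCh38.p14, which run from 250 bases before to 50 bases after a transcription start, were matched by symbol for 7 of the 10 genes: E2F1, E2F2, E2F3, E2F4, E2F7, MYBL2 and LIN9. No entry was used for E2F5, E2F8 or FOXM1. On both strands they were searched for the E2F motif in 8 spellings (TTTCCCGC, TTTCCCGG, TTTCGCGC, TTTCGCGG, TTTGCCGC, TTTGCCGG, TTTGGCGC and TTTGGCGG) and for the CHR motif in 2 (TTTGAA and TTCGAA). The windows of the activators E2F1, E2F2 and E2F3 are shown because all 3 held the E2F motif near the start, and a window of LIN9 because it held the CHR motif. Capitals mark the matches, and each window is written 5′ to 3′ on the strand of its gene.
E2F1 (chr20:33686336-33686635, minus strand): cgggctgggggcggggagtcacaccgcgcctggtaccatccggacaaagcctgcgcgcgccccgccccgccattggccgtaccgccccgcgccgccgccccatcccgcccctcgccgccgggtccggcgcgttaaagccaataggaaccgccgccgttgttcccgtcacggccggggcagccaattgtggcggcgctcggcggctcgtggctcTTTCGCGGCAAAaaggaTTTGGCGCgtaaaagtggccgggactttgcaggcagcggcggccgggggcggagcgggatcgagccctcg
E2F2 (chr1:23531184-23531483, minus strand): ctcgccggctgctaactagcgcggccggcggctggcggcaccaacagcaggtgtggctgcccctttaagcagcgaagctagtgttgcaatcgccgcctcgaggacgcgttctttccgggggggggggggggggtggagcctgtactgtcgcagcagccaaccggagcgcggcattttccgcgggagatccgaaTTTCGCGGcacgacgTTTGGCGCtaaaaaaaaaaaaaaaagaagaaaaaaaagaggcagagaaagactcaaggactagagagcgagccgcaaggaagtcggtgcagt
E2F3 (chr6:20401629-20401928, plus strand): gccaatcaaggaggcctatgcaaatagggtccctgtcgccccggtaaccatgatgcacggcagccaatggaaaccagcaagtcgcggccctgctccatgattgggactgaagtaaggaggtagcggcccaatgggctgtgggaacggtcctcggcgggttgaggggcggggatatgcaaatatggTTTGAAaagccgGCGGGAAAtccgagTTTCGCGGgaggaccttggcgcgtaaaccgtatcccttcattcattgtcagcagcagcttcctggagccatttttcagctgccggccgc
LIN9 (chr1:226309115-226309414, minus strand): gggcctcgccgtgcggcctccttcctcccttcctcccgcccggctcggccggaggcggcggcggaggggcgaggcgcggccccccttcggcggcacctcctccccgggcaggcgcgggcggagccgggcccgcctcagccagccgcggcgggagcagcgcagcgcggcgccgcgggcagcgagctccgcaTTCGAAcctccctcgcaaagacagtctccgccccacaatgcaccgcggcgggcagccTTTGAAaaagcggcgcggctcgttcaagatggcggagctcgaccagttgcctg

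In the E2F1 window, TTTCGCGG lay 37 to 30 bases before the start and TTTGGCGC 20 to 13 bases before it. A match on the other strand, read as GCGGCAAA, lay 33 to 26 bases before the start and overlapped the first. The E2F2 window held the same TTTCGCGG and TTTGGCGC spellings, 57 to 50 and 42 to 35 bases before the start. In the E2F3 window, the CHR spelling TTTGAA began 65 bases before the start, followed by GCGGGAAA at 53 and TTTCGCGG at 39 bases. Of the 3 LIN9 windows, the one shown held TTCGAA 60 to 55 bases before its start. Its TTTGAA began 3 bases before the start and ran past it. The letters searched did not occur in the windows of E2F4, E2F7 and MYBL2, nor in the second E2F3 window. Counted over windows, the E2F motif was in 3 of 10 of these genes' windows, 30.0%, and in 6.19% of all 35116 RefSeq windows. The CHR motif was in 2 of the 10, 20%, against 16.4% of all windows. In windows of all genes tested, the E2F motif was in 8.74% and the CHR motif in 12%. A match describes the letters and shows neither binding nor its absence.

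Libraries held 28483235 to 29359024 counts, and counts of all 8 entered a single edgeR model. Values below are TMM-scaled CPM, a gene's counts relative to the scaled total of its library, log2 fold changes (log2 FC) are from edgeR's quasi-likelihood test, and adjusted p is its Benjamini-Hochberg value over all 15085 genes. Genes were called lower or higher at an adjusted p below 0.05. No replicate pair was identical, and the control pair stood furthest apart, with a chi-square per degree of freedom of 58.1 against 9.52 to 9.79 in the drug groups. The model takes the spread of a gene as equal in all groups. Standard errors, intervals and p of each drug against control may therefore be too small. The first control library was above the second in 7 of the 10 genes, by 1.29-fold for FOXM1, 1.27-fold for MYBL2, 1.24-fold for E2F4 and 1.19-fold for E2F1. It was below it for E2F3 (ratio 0.871) and E2F7 (0.84). Of 7 melanocytic markers, 6 had over 3 counts in every library, while DCT had 0 to 5. The summed level of the 7 was 4030 to 5120 CPM in control and 3520 to 5030 CPM in the drug libraries, most of it TYRP1 (2870 to 3870 CPM over all libraries). Single markers were less even: the lowest library was at 51.5 CPM for SOX10, 118 for MITF and 78.3 for MLANA, against control means of 199, 333 and 196 CPM. The leukocyte marker CD3E, the endothelial marker CDH5 and the epithelial marker KRT5 had 0 counts throughout. Summed fibroblast markers stood at 1.53 to 1.58 CPM in control and 1.01 to 11.4 CPM with the drugs, of which COL1A1 gave up to 11.3 CPM and LUM at most 1 count. Summed leukocyte, endothelial and epithelial markers reached at most 0.726, 0.834 and 8.85 CPM. The part of these levels in the results below was not tested.

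Per length of exon, FOXM1 was the most abundant of the 10 genes in control cells, at 28.8 ± 5.07 CPM per kb (SD, n = 2 here and below). E2F3, the most abundant E2F, followed at 14.4 ± 1.40 CPM per kb. E2F1 at 12.6 ± 1.54, MYBL2 at 12.4 ± 2.09 and E2F5 at 10.9 ± 1.18 CPM per kb came next, and these neighbours differed by less than their spread. E2F4 stood at 8.36 ± 1.25 CPM per kb. E2F2 at 4.18 ± 0.0272 and LIN9 at 3.83 ± 0.213 CPM per kb were followed by E2F7 at 2.32 ± 0.285 CPM per kb. E2F8 was lowest, at 0.962 ± 0.00522 CPM per kb, and was last in all 4 groups. The order changed with the drugs. FOXM1 remained first with romidepsin (18.2 ± 1.65 CPM per kb) and mivebresib (10.0 ± 0.653 CPM per kb), where E2F3 at 9.41 ± 0.111 CPM per kb was within the spread. With quisinostat the repressor E2F5 was first at 18.2 ± 0.898 CPM per kb. E2F7 moved from rank 9 in control to rank 7 with romidepsin, 5 with quisinostat and 6 with mivebresib. Its levels there were 2.2, 4.06 and 6.1 CPM per kb, so its rank also depended on the levels of the other genes. MYBL2 moved from rank 4 to rank 6 with romidepsin and to rank 7 with quisinostat and mivebresib.

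**Figure D1:**
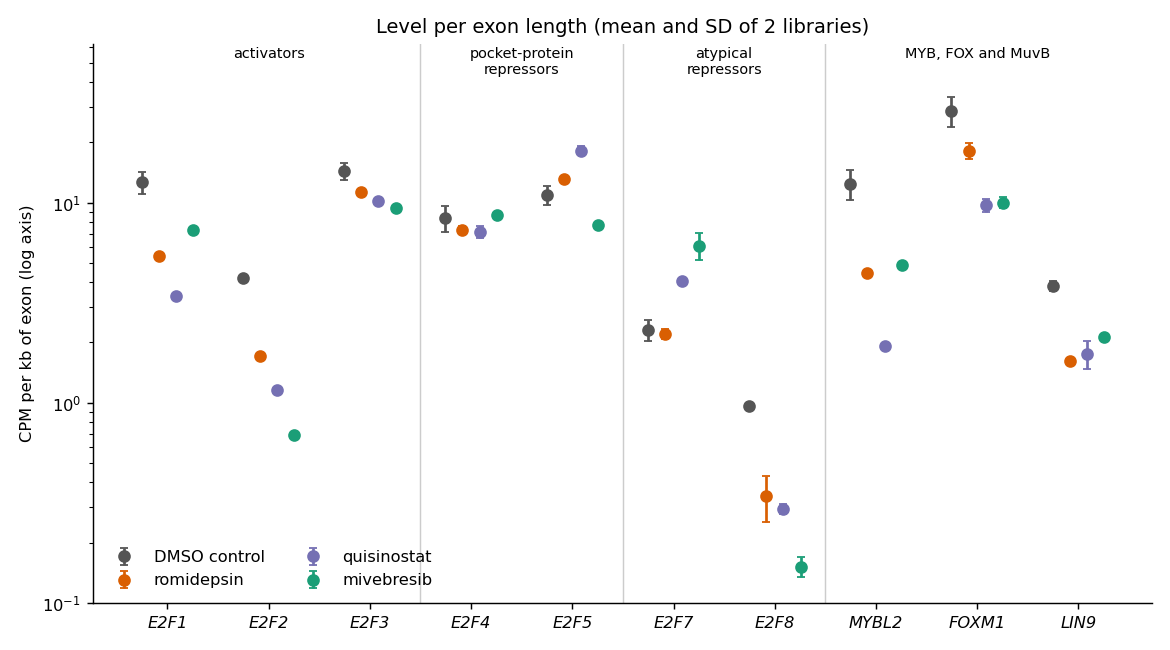
Level of each gene in CPM per kb of exon on a log axis, by group (colour), as the mean and SD of 2 libraries, with the genes ordered by role. FOXM1 was highest in control at 28.8 CPM per kb, E2F5 was highest with quisinostat at 18.2 CPM per kb, and E2F8 was lowest in every group.

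Against control, 7 of the 10 genes were lower with romidepsin and 0 higher, where 15.8% of all genes tested were lower and 15.2% higher. With quisinostat 7 were lower and 2 higher, against 25.1% and 28.0% of all genes. With mivebresib 8 were lower and 1 higher, against 24.1% and 22.2%. The split over all genes depended on scaling. It was 2377 lower and 2293 higher with romidepsin by TMM, 1700 and 2787 by library size alone and 1665 and 2883 by upper-quartile factors. For quisinostat these were 3793 and 4231, 2144 and 5625, and 2673 and 5048. The median log2 FC of the 10 was -0.94 with romidepsin, -1.35 for quisinostat and -0.81 for mivebresib. That of all genes tested was -0.01, -0.0036 and 0.0067. Decreases beyond 1.5 on the log2 scale were absent with romidepsin (0), numbered 5 with quisinostat (E2F1, E2F2, E2F8, MYBL2 and FOXM1) and were 3 with mivebresib (E2F2, E2F8 and FOXM1). Some values lay close to that limit. E2F8 (-1.49) and MYBL2 (-1.48) fell just short of it with romidepsin, and FOXM1 (-1.52) was just past it with mivebresib. The share of all genes past that limit was 0.312%, 1.03% and 4.36%. On the authors' quantile-normalized table, where fewer genes of any kind were called, 5, 6 and 7 of the 10 were lower and 0, 0 and 1 higher. The 3 comparisons share the control libraries. In bulk RNA, fewer cells in a phase of the cycle and less RNA per cell cannot be told apart.

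**Figure D2:**
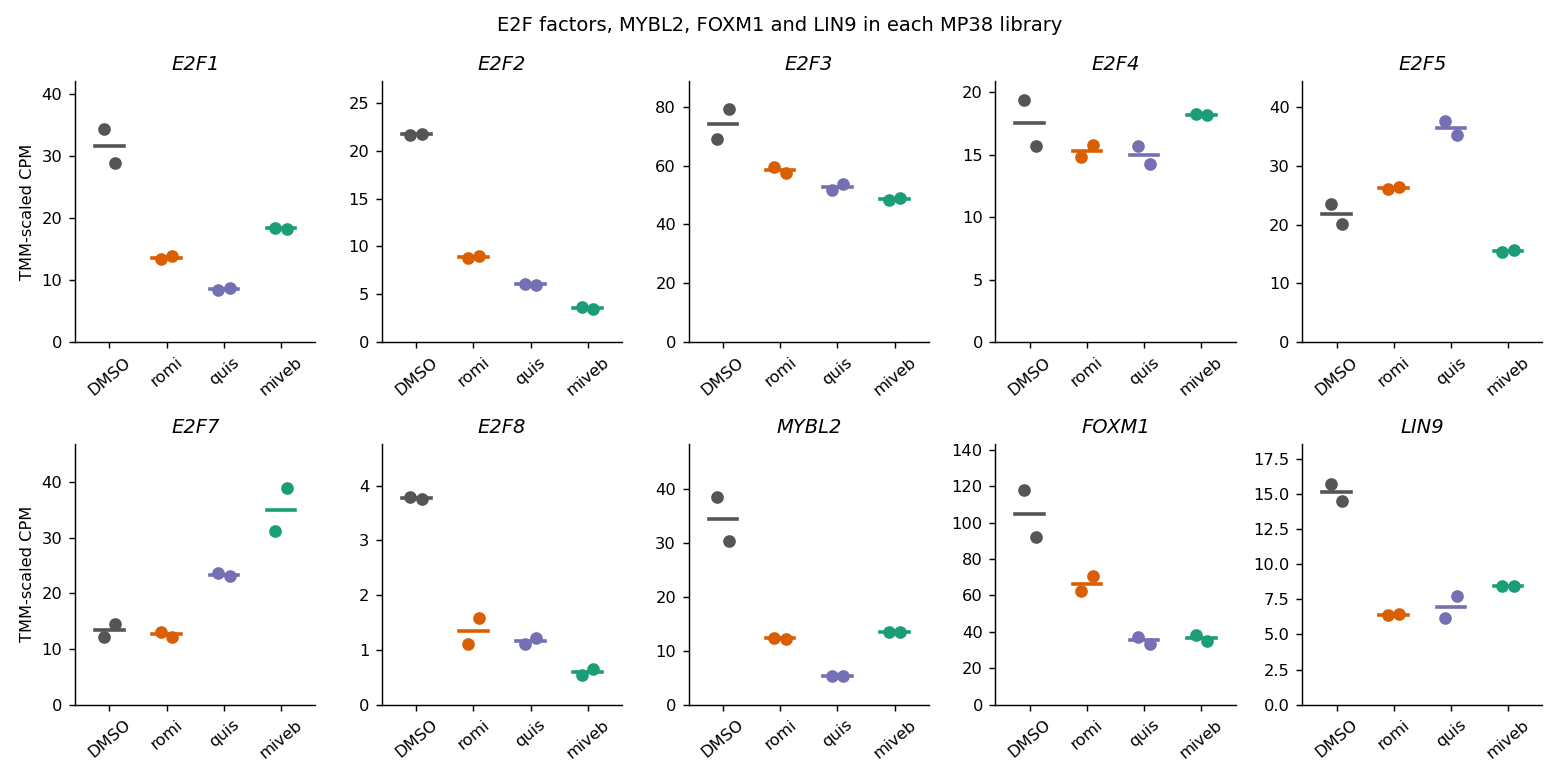
TMM-scaled CPM of each gene in each of the 8 libraries (points) with the group mean (line), on axes that start at 0. E2F1, E2F2, E2F3, E2F8, MYBL2, FOXM1 and LIN9 had every drug library below both controls, E2F5 and E2F7 had drug libraries above them, and E2F4 stayed near its control range of 15.7 to 19.4 CPM.

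E2F1 (ENSG00000101412, chromosome 20, 33675683 to 33686404), the first described activator, stood at 34.3 and 28.8 CPM in the control libraries. It was at 13.4 and 13.8 CPM with romidepsin, 8.33 and 8.76 with quisinostat, and 18.4 and 18.2 with mivebresib. All 6 drug libraries were below both controls, and the drug groups did not overlap each other. E2F1 fell with romidepsin (log2 FC -1.21 ± 0.104 SE, adjusted p = 0.000148), quisinostat (-1.88 ± 0.107, adjusted p = 4.67e-06) and mivebresib (-0.78 ± 0.102, adjusted p = 0.00039). The activator E2F2 (ENSG00000007968, chromosome 1, 23506430 to 23531220) was at 21.6 and 21.8 CPM in control. It stood at 8.79 and 8.95 CPM with romidepsin, 6.11 and 5.92 with quisinostat, and 3.66 and 3.49 with mivebresib. Its groups were again separate, but here mivebresib was the lowest and not the highest of the drugs. The fall was 2.45-fold with romidepsin (log2 FC -1.29 ± 0.0946, adjusted p = 9.03e-05), 3.61-fold with quisinostat (-1.85 ± 0.0974, adjusted p = 3.38e-06) and 6.07-fold with mivebresib (-2.60 ± 0.105, adjusted p = 1.52e-06).

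E2F3 (ENSG00000112242, chromosome 6, 20401906 to 20493715), the activator of highest level, changed least of the 3. It was at 69.2 and 79.5 CPM in control, 59.5 and 57.4 with romidepsin, 51.6 and 53.8 with quisinostat, and 48.2 and 49.0 with mivebresib. No drug library reached the lower control library. E2F3 fell with quisinostat (log2 FC -0.50 ± 0.0864, adjusted p = 0.00153) and mivebresib (-0.61 ± 0.0869, adjusted p = 0.000606). Its decrease with romidepsin was called by a narrow margin (-0.35 ± 0.0863, adjusted p = 0.0171) and was not past the threshold with upper-quartile factors (adjusted p = 0.0501), with only the 4 libraries compared (0.0902), or without romidepsin replicate 1 (0.0822), romidepsin replicate 2 (0.106) or quisinostat replicate 2 (0.0502).

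The repressors E2F4 and E2F5 act with pocket proteins. E2F4 (ENSG00000205250, chromosome 16, 67192169 to 67198918) was at 19.4 and 15.7 CPM in control. It was at 14.8 and 15.8 CPM with romidepsin, 15.7 and 14.3 with quisinostat, and 18.3 and 18.2 with mivebresib. The romidepsin libraries overlapped the controls, and the mivebresib libraries lay between them. E2F4 passed the test with none of the drugs, with log2 FC of -0.20 (95% interval -0.47 to 0.07, adjusted p = 0.232), -0.23 (-0.50 to 0.04, adjusted p = 0.133) and 0.05 (-0.21 to 0.32, adjusted p = 0.731) for romidepsin, quisinostat and mivebresib. These values depended on the control pair: without control replicate 2, E2F4 was called lower with romidepsin (-0.34, adjusted p = 0.0266) and quisinostat (-0.38, adjusted p = 0.012).

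E2F5 (ENSG00000133740, on chromosome 8) was at 23.5 and 20.1 CPM in control, 26.1 and 26.4 with romidepsin, 37.8 and 35.2 with quisinostat, and 15.3 and 15.8 with mivebresib. The mivebresib libraries lay below both controls and those of the HDAC inhibitors above both. E2F5 rose 1.67-fold with quisinostat (log2 FC 0.74 ± 0.0954, adjusted p = 0.000291) and fell 1.41-fold with mivebresib (-0.49 ± 0.0991, adjusted p = 0.00394). With romidepsin the log2 FC was 0.27 (95% interval 0.05 to 0.49, adjusted p = 0.0663). That value was called higher with library size alone (0.34, adjusted p = 0.0387), upper-quartile factors (0.35, adjusted p = 0.0275), a mean CPM of at least 5 (0.33, adjusted p = 0.0331) and without control replicate 1 (0.41, adjusted p = 0.00996). On the opposite strand E2F5 overlaps C8orf59, which had log2 FC of -0.03 with romidepsin, -0.03 with quisinostat and -0.11 with mivebresib. Whether the counting used strand is not given in the sources used here.

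The atypical repressors E2F7 and E2F8, close paralogs that hold back the same targets, moved apart with quisinostat and mivebresib. E2F7 (ENSG00000165891, chromosome 12, 77021247 to 77065580) was at 12.2 and 14.5 CPM in control and 13.1 and 12.1 with romidepsin. It was at 23.6 and 23.0 CPM with quisinostat and 31.2 and 38.8 with mivebresib, the widest pair of any drug group for this gene. The romidepsin and control libraries overlapped, and those of the other drugs lay above them. E2F7 rose 1.75-fold with quisinostat (log2 FC 0.81 ± 0.131, adjusted p = 0.00107) and 2.62-fold with mivebresib (1.39 ± 0.131, adjusted p = 6.9e-05), and did not pass the test with romidepsin (-0.08, 95% interval -0.39 to 0.23, adjusted p = 0.676). E2F8 (ENSG00000129173, chromosome 11, 19224063 to 19241620) had the fewest counts of the 10 genes, 107 and 103 in control. It had 32 and 46 counts with romidepsin, 35 and 38 with quisinostat, and 15 and 18 with mivebresib. In CPM these were 3.79 and 3.76, then 1.10 and 1.58, 1.11 and 1.21, and 0.549 and 0.647. Every drug library was below both controls, and the romidepsin and quisinostat libraries overlapped. E2F8 fell with romidepsin (log2 FC -1.49 ± 0.221, adjusted p = 0.00175), quisinostat (-1.70 ± 0.223, adjusted p = 0.000319) and mivebresib (-2.65 ± 0.252, adjusted p = 7.26e-05). Its standard errors were the largest of the 10.

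MYBL2 (ENSG00000101057, chromosome 20, 43667019 to 43716496) is itself a known E2F target and drives late cell cycle genes with the MuvB core. It was at 38.5 and 30.3 CPM in control, 12.4 and 12.3 with romidepsin, 5.38 and 5.25 with quisinostat, and 13.5 and 13.4 with mivebresib. Quisinostat gave the lowest libraries, well apart from those of both other drugs. The fall was 6.47-fold with quisinostat (log2 FC -2.69 ± 0.130, adjusted p = 2.43e-06), 2.80-fold with romidepsin (-1.48 ± 0.121, adjusted p = 0.000124) and 2.55-fold with mivebresib (-1.35 ± 0.120, adjusted p = 5.2e-05).

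FOXM1 (ENSG00000111206, chromosome 12, 2857681 to 2877155) is a forkhead factor of G2 and mitosis. It was at 118.1 and 91.9 CPM in control, 62.3 and 70.8 with romidepsin, 37.1 and 33.5 with quisinostat, and 38.3 and 34.9 with mivebresib. The quisinostat and mivebresib libraries overlapped, and all drug libraries lay below both controls. FOXM1 fell 2.97-fold with quisinostat (log2 FC -1.57 ± 0.133, adjusted p = 3.11e-05), 2.87-fold with mivebresib (-1.52 ± 0.133, adjusted p = 4.78e-05) and 1.58-fold with romidepsin (-0.66 ± 0.129, adjusted p = 0.00615). Without romidepsin replicate 1 the last of these was -0.57 and not past the threshold (adjusted p = 0.0622). FOXM1 overlaps ITFG2 and RHNO1 on the opposite strand, which were at 12.7 and 32.9 CPM in control against 105 CPM for FOXM1. ITFG2 had log2 FC of -1.09, -1.12 and 0.18, and RHNO1 of -1.05, -0.56 and -0.56, for romidepsin, quisinostat and mivebresib. Reads of the 3 genes could have been shared in counting, and this was not tested.

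LIN9 (ENSG00000183814, chromosome 1, 226231149 to 226309869), a subunit of the MuvB core, was at 15.7 and 14.5 CPM in control. It was at 6.35 and 6.44 CPM with romidepsin, 6.17 and 7.77 with quisinostat, and 8.45 in both libraries with mivebresib. All drug libraries were below both controls. LIN9 fell with romidepsin (log2 FC -1.24 ± 0.129, adjusted p = 0.000338), quisinostat (-1.12 ± 0.127, adjusted p = 0.000151) and mivebresib (-0.84 ± 0.127, adjusted p = 0.000848).

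**Figure D3:**
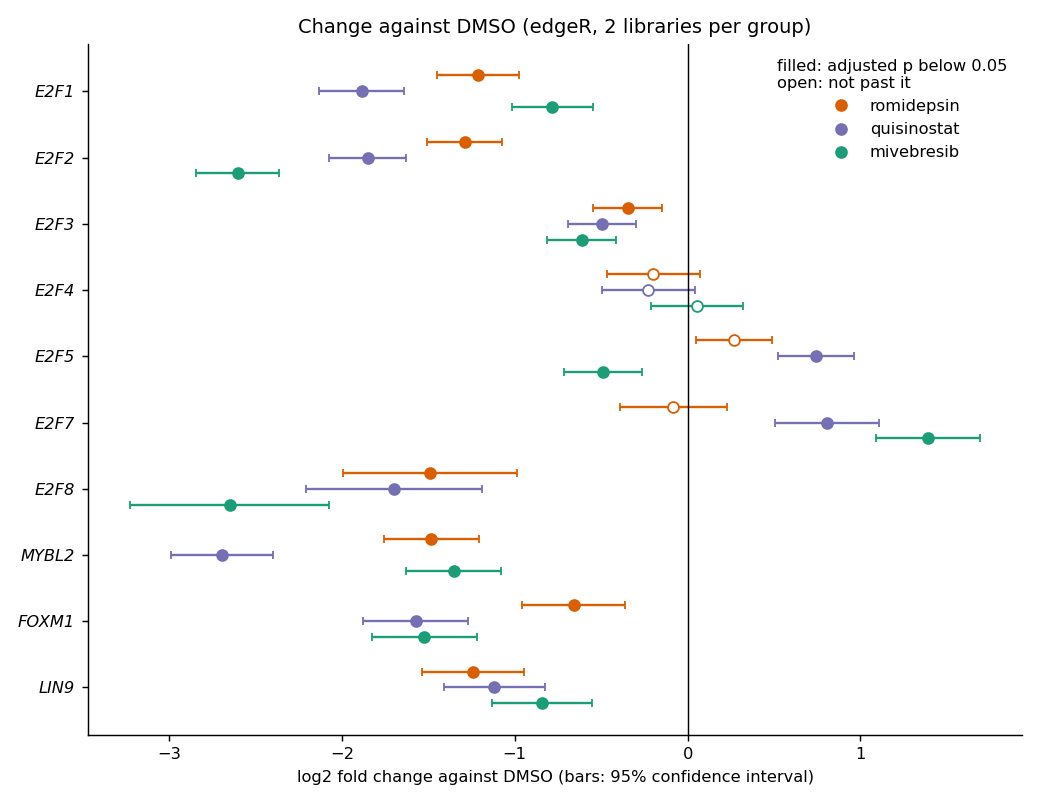
Log2 FC of each gene against control for the 3 drugs, with 95% confidence intervals from edgeR; filled points are past an adjusted p of 0.05. E2F1, E2F2, E2F3, E2F8, MYBL2, FOXM1 and LIN9 were below 0 with all 3 drugs, E2F7 was above 0 with quisinostat (0.81) and mivebresib (1.39), and E2F4 had 3 open points.

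Romidepsin and quisinostat, which share a target class and were given at the same dose and time, were compared directly. The paper reports a lower IC50 in MP38 cells for romidepsin than for quisinostat, so equal doses need not be equally potent. Quisinostat was lower than romidepsin for 4 of the 10 genes and higher for 2, where 14.6% of all genes were lower and 21.0% higher. It was lower for MYBL2 (log2 difference -1.21 ± 0.133, adjusted p = 0.000386), FOXM1 (-0.91 ± 0.132, adjusted p = 0.00132), E2F1 (-0.67 ± 0.110, adjusted p = 0.00234) and E2F2 (-0.56 ± 0.101, adjusted p = 0.00359). The repressors E2F7 (0.89 ± 0.131, adjusted p = 0.00149) and E2F5 (0.48 ± 0.0944, adjusted p = 0.00549) were higher. Without quisinostat replicate 1 the E2F5 difference was 0.41 and not past the threshold (adjusted p = 0.0604). The others did not pass the test, with 95% intervals of -0.35 to 0.05 for E2F3, -0.30 to 0.24 for E2F4, -0.77 to 0.35 for E2F8 and -0.18 to 0.43 for LIN9. With only the 4 libraries compared, E2F3 was called lower (-0.19, adjusted p = 0.0459).

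Mivebresib was given at another dose, so its values against the HDAC inhibitors compare these treatments and not the compounds at matched doses. Against quisinostat, 3 genes were lower and 3 higher with mivebresib, where 31.5% of all genes were lower and 26.2% higher. Those higher with mivebresib were MYBL2 (1.34 ± 0.133, adjusted p = 5.69e-05), E2F1 (1.10 ± 0.109, adjusted p = 5.52e-05) and E2F7 (0.59 ± 0.126, adjusted p = 0.00392). Those lower were E2F5 (-1.23 ± 0.0976, adjusted p = 1.76e-05), E2F8 (-0.95 ± 0.283, adjusted p = 0.0191) and E2F2 (-0.75 ± 0.111, adjusted p = 0.00052). The activators E2F1 and E2F2 thus differed in opposite directions. The call for E2F8 was lost with DESeq2 (adjusted p = 0.0622) and without any 1 of the 4 libraries compared (adjusted p = 0.0508 to 0.0951). FOXM1 did not pass the test (0.05, 95% interval -0.25 to 0.35, adjusted p = 0.768). Nor did E2F3 (-0.12, 95% interval -0.32 to 0.08), E2F4 (0.28, 0.01 to 0.55) and LIN9 (0.28, -0.02 to 0.58). Of these, E2F3 was called with library size alone (-0.30, adjusted p = 0.0155) and LIN9 without quisinostat replicate 2 (0.47, adjusted p = 0.0349). E2F4 was called with only the 4 libraries compared (adjusted p = 0.0183), without control replicate 1 (0.015) and without control replicate 2 (0.0163).

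Against romidepsin, 5 genes were lower and 3 higher with mivebresib, where 25.2% of all genes were lower and 23.7% higher. The lower genes were E2F2 (-1.31 ± 0.108, adjusted p = 3.23e-05), E2F8 (-1.16 ± 0.280, adjusted p = 0.00894), FOXM1 (-0.86 ± 0.132, adjusted p = 0.000848), E2F5 (-0.76 ± 0.0983, adjusted p = 0.000351) and E2F3 (-0.27 ± 0.0869, adjusted p = 0.0326). Higher were E2F7 (1.47 ± 0.131, adjusted p = 4.72e-05), E2F1 (0.43 ± 0.105, adjusted p = 0.00946) and LIN9 (0.40 ± 0.133, adjusted p = 0.0351). MYBL2 did not pass the test (0.13, 95% interval -0.15 to 0.41, adjusted p = 0.419). Of these 8 differences, 5 remained past the threshold without romidepsin replicate 1, without romidepsin replicate 2 or without mivebresib replicate 1. E2F3 and LIN9 were lost without any 1 of the 4 libraries compared (adjusted p of at least 0.0937 and 0.109), E2F1 without romidepsin replicate 1 (0.0645), and E2F8 without romidepsin replicate 2 (0.0657) or mivebresib replicate 1 (0.0554). The LIN9 difference was not past the threshold with DESeq2, with upper-quartile factors, with library size alone, without the filter or with a mean CPM of at least 5 (adjusted p = 0.0501 to 0.101). E2F4 was not past it (0.25, 95% interval -0.02 to 0.52, adjusted p = 0.109), and was without control replicate 1 (adjusted p = 0.0483) or control replicate 2 (0.0357).

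**Figure D4:**
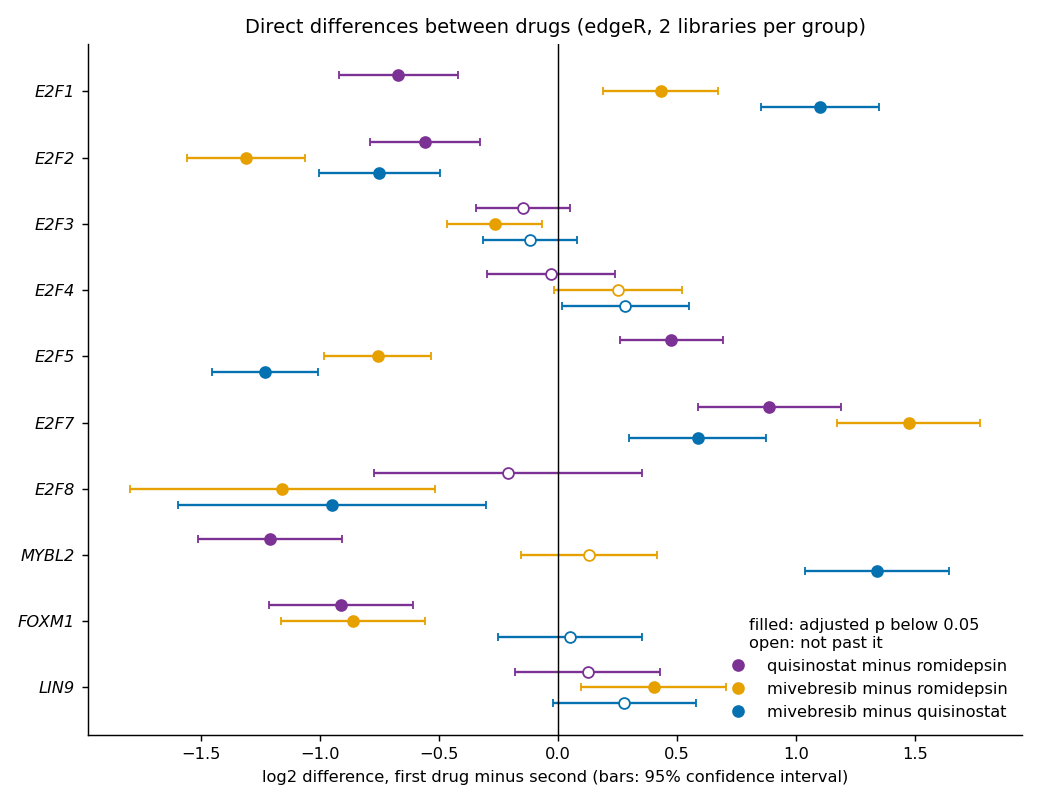
Log2 difference between each pair of drugs for each gene, the first drug minus the second, with 95% confidence intervals from edgeR; filled points are past an adjusted p of 0.05. MYBL2 was lowest with quisinostat (-1.21 against romidepsin) and did not pass the test between mivebresib and romidepsin, while FOXM1 did not between mivebresib and quisinostat.

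For the 10 listed partners of these factors, the median log2 FC was -0.34 with romidepsin, -0.39 with quisinostat and -0.21 with mivebresib. With romidepsin 5 fell and 1 rose, with quisinostat 5 fell and 2 rose, and with mivebresib 4 fell and 1 rose. The shares that rose were below those of all genes (15.2%, 28.0% and 22.2%), and 15.8%, 25.1% and 24.1% of all genes fell. On the quantile-normalized values 0, 2 and 0 partners fell. Without either romidepsin library 3 fell with romidepsin, without control replicate 1 or either quisinostat library 1 rose with quisinostat, and without control replicate 1, 2 rose with mivebresib. The DP proteins went opposite ways with every drug. TFDP1 fell (-0.61, -0.92 and -0.39 for romidepsin, quisinostat and mivebresib, adjusted p = 0.00448, 0.000214 and 0.0195), while TFDP2 rose (0.97, 1.26 and 0.55, adjusted p = 0.000177, 1.09e-05 and 0.00129). RB1, the pocket protein that restrains the activators, passed the test with none of the drugs (-0.05, -0.11 and -0.02). RBL1 (p107) fell with romidepsin (-0.55, adjusted p = 0.0206) and quisinostat (-0.81, adjusted p = 0.00168) and was at -0.14 with mivebresib. RBL2 (p130), the pocket protein of resting cells, rose with quisinostat (0.35, adjusted p = 0.0189), fell with mivebresib (-0.47, adjusted p = 0.00628) and was at -0.16 with romidepsin. Among MuvB subunits, LIN54, which contacts the CHR element, fell with all 3 drugs (-0.48, -0.40 and -0.37, adjusted p = 0.0043, 0.00482 and 0.00802). The histone-binding subunit RBBP4 fell with romidepsin (-0.41, adjusted p = 0.00441) and quisinostat (-0.72, adjusted p = 9.84e-05) and was at -0.16 with mivebresib. LIN37 fell with romidepsin (-0.49, adjusted p = 0.0352) and was at -0.38 and -0.26 with the other drugs. LIN52 fell with mivebresib (-0.64, adjusted p = 0.00354) and was at -0.27 and 0.18 with the HDAC inhibitors. E2F6, a repressor that works without pocket proteins, fell with quisinostat (-0.59, adjusted p = 0.00109) and was at -0.13 and 0.12 with romidepsin and mivebresib.

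The 34 G1/S genes were listed from general knowledge as E2F targets, with lower replication and mitosis genes in these data already known. Their counts are therefore a description. Of the 34, 31 fell when cells had romidepsin, 33 with quisinostat and 24 with mivebresib, and 0 rose. Of all genes tested, 15.8%, 25.1% and 24.1% fell. On the authors' quantile-normalized values 12, 21 and 9 of the 34 fell. Without either control library, 1 G1/S gene rose with mivebresib. The median log2 FC of the 34 was -0.94, -1.48 and -0.61. The largest falls were those of the origin factor ORC1 (-1.65, adjusted p = 0.000112) and cyclin E2, CCNE2 (-1.64, adjusted p = 6.08e-05), with romidepsin. With quisinostat they were those of the ribonucleotide reductase subunit RRM2 (-2.59, adjusted p = 6.49e-07) and the replication factor MCM10 (-2.57, adjusted p = 2.36e-06). With mivebresib the GINS helicase subunits GINS2 (-1.40, adjusted p = 0.000591) and GINS1 (-1.31, adjusted p = 2.13e-05) led, and CCNE2 was at -0.17. Cyclin E1, CCNE1, passed the test with none of the drugs, at -0.13, 0.13 and 0.07. A log2 FC beyond -1.5 was reached by 3 of these genes in the romidepsin comparison, 16 in that of quisinostat and 0 in that of mivebresib. Of all genes tested, 0.312%, 1.03% and 4.36% reached it. In the direct test, 26 of the 34 were higher with mivebresib than with quisinostat and 1 lower, against 26.2% and 31.5% of all genes. With quisinostat 19 were lower than with romidepsin and 0 higher, against 14.6% and 21.0% of all genes. With mivebresib 2 were lower than with romidepsin and 18 higher, against 25.2% and 23.7% of all genes. RefSeq windows were matched for 29 of the 34 genes. The E2F motif was in 21 of these 42 windows, 50%, and the CHR motif in 7.14%. In windows of all genes tested they were in 8.74% and 12%.

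The 34 G2/M genes were listed in the same way, as targets of MYBL2, FOXM1 and MuvB, and their counts are likewise a description. Of the 34, 30 fell under romidepsin, 30 under quisinostat and 27 under mivebresib, and 0 rose. The shares of all genes tested that fell were 15.8%, 25.1% and 24.1%. On the quantile-normalized values 5, 15 and 6 of the 34 fell. Without control replicate 1, 1 G2/M gene rose with mivebresib. The median log2 FC of the 34 was -0.68, -1.0 and -0.65. Cyclin A2, CCNA2 (-1.08, adjusted p = 9.01e-05), and the survivin gene BIRC5 (-1.04, adjusted p = 0.00059) fell furthest with romidepsin. BIRC5 (-1.67, adjusted p = 1.56e-05) and GTSE1 (-1.53, adjusted p = 4.47e-06) did so with quisinostat, and with mivebresib the mitotic kinase AURKA (-1.68, adjusted p = 4.67e-06) and BIRC5 (-1.25, adjusted p = 8.83e-05). Directly compared, 21 of the 34 were lower with quisinostat than with romidepsin and 1 higher, against 14.6% and 21.0% of all genes. With mivebresib 5 were lower than with romidepsin and 5 higher, against 25.2% and 23.7% of all genes. Against quisinostat, 2 were lower and 20 higher with mivebresib, where 31.5% and 26.2% of all genes were. RefSeq windows were matched for 29 of the 34 genes. The CHR motif was in 24 of these 35 windows, 68.6%, and the E2F motif in 14.3%. In windows of all genes tested these motifs were in 12% and 8.74%.

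**Figure D5:**
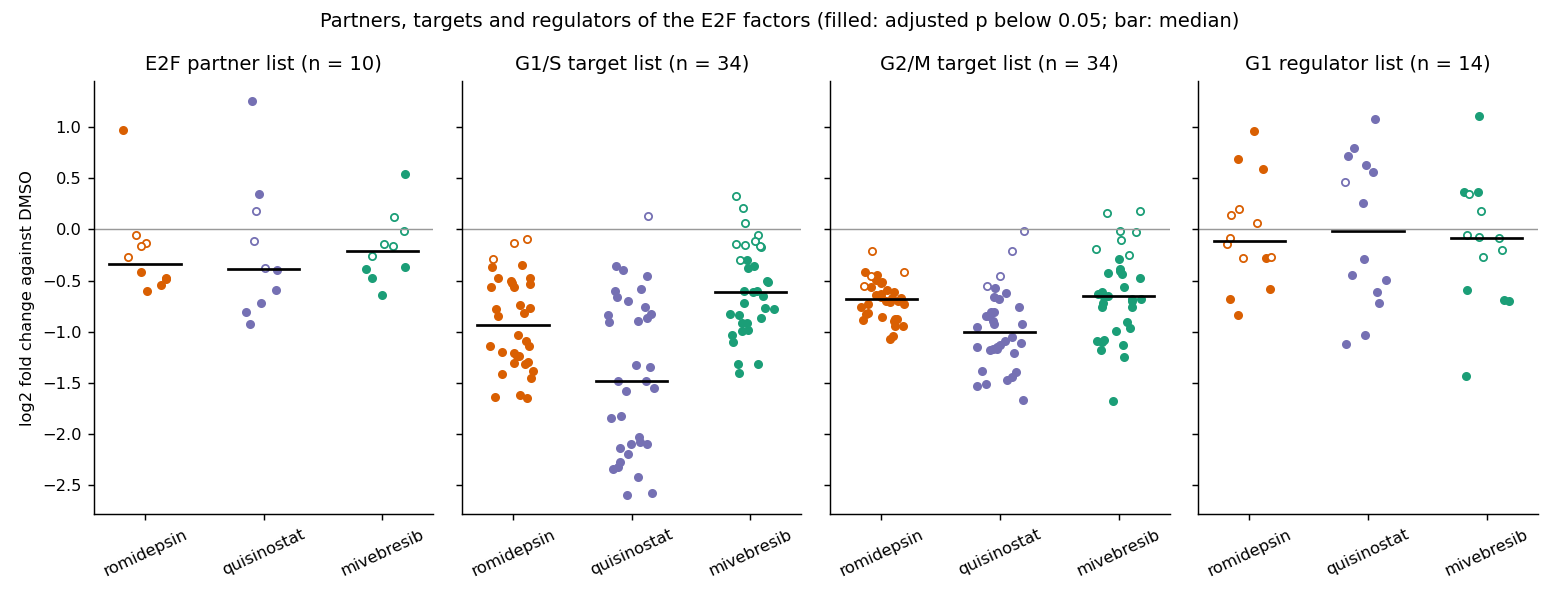
Log2 FC against control of the genes of 4 lists (partners, G1/S targets, G2/M targets and G1 regulators) for the 3 drugs; each point is a gene, filled where past an adjusted p of 0.05, and the bar is the list's median. The G1/S median was lowest with quisinostat at -1.48, and no gene of either target list was called higher.

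The 14 listed G1 regulators were cyclins D, kinases, their inhibitors and SKP2. Of these, 4 fell and 3 rose with romidepsin, 7 fell and 6 rose with quisinostat, and 4 fell and 3 rose with mivebresib. The median log2 FC was -0.11, -0.01 and -0.08. Over all genes 15.8% fell and 15.2% rose with romidepsin, 25.1% and 28.0% with quisinostat, and 24.1% and 22.2% with mivebresib, so the shares with mivebresib were near those of all genes. Without quisinostat replicate 1, 3 rose with that drug, and without either romidepsin library 2 fell with romidepsin. The inhibitor gene CDKN2B (p15) rose with romidepsin (0.69, adjusted p = 0.00267), quisinostat (0.79, adjusted p = 0.000481) and mivebresib (1.11, adjusted p = 9.95e-05). CDKN2A rose with romidepsin (0.96, adjusted p = 0.00104) and quisinostat (0.72, adjusted p = 0.00176) and was at 0.18 with mivebresib. Cyclin D2, CCND2, which drives CDK4 and CDK6, rose with romidepsin (0.59, adjusted p = 0.00316), quisinostat (1.08, adjusted p = 4.64e-05) and mivebresib (0.36, adjusted p = 0.0165). The falls were led with romidepsin by the inhibitors CDKN2C (-0.84, adjusted p = 0.000477) and CDKN1C (-0.68, adjusted p = 0.0264). With quisinostat they were led by CDK2 (-1.12, adjusted p = 2.36e-05) and CDK4 (-1.03, adjusted p = 0.000183), and with mivebresib by CDK2 (-1.43, adjusted p = 1.03e-05) and CDK6 (-0.70, adjusted p = 0.000157).

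Across the 8 libraries, the genes whose log2 CPM followed single factors most closely were sought among 9672 genes whose log2 CPM averaged 3 or more. For MYBL2 these were TRIP13, CDCA5 and TYMS, with Pearson r of 0.997, 0.996 and 0.992. For E2F1 they were ZWINT (0.993), PLK4 (0.992) and TCF19 (0.991). TRIP13, CDCA5, ZWINT and PLK4 act in mitosis or centriole duplication, and TYMS makes thymidylate for DNA. For FOXM1 they were C5orf22 (0.995), WSB2 (0.993) and SSU72 (0.992), and for E2F8 NSMAF (0.990), EHBP1L1 (0.989) and ALG14 (0.987). Among the genes found in this way for the 4 factors, only TYMS is in the lists above. The 8 libraries fall into 4 conditions, so each r rests mostly on 4 group means. It is given as a description.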

How the data were processed

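Bulk RNA libraries of MP38 cells (4 groups of 2) were analysed from 3 tables that the authors made with BioJupies. The first holds the counts per gene symbol, deposited without normalization. The second holds log10 values that the authors derived from the counts, and it was not used for tests. The last is the authors' quantile-normalized table, deposited as a score of unnamed scale, on which genes were called by adjusted p and sign only (the plan had taken its values for log2). The submitters' processing notes name hg38; the aligner, its version and whether counting used strand are not given in the sources used here. The library preparation kept strand.

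Counts were analysed in R 4.3.3 with edgeR 4.0.16 (filterByExpr by group, TMM factors, glmQLFit and glmQLFTest, 1 coefficient per group over 8 libraries, Benjamini-Hochberg adjustment). The biological coefficient of variation was 0.0938. A gene was called at an adjusted p below 0.05, and changes beyond a log2 FC of 1.5 were also counted. The log2 CPM used for likeness had a prior count of 2. Alternatives were DESeq2 1.42.0, limma-voom and limma 3.58.1 on the quantile-normalized table, upper-quartile factors, library size alone, other filters and thresholds, only the 4 libraries compared, a replicate block, and each library left out in turn. Totals per library ran from 28483235 to 29359024 counts. Each group has 2 libraries, and both this and low counts limit precision. On counts simulated for romidepsin versus control, edgeR recovered 79.8% of genes changed by 1 in log2 and 94.9% of those changed by 2. It made 8 false calls among 14697 genes. Recovery of changes below 1 was not tested. Recovery and false calls at the wider spread of the control pair were not tested either.

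Gene positions and exon lengths came from GENCODE 29 on GRCh38, and promoter windows from RefSeq on GRCh38.p14, read with Python 3.11.15 and pandas 2.3.3. Figures were drawn with matplotlib 3.10.9. The genes and lists were chosen with earlier results of these data known, including lower replication and mitosis genes. Named were the 10 genes, all partners, per drug the 2 largest called rises and falls of each other list, and the 3 genes most like E2F1, E2F8, MYBL2 and FOXM1. C8orf59, ITFG2 and RHNO1 (as overlapping genes), CCNE1 and the values of CCNE2 with mivebresib were added after values were seen.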

Additional observations from a re-analysis of the deposited data

How the results depend on the processing

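Counts of the 10 genes lower than control stayed within 1.5 times their value under every alternative run. On the quantile-normalized table fewer genes were called. The genes higher with quisinostat numbered 0 there, and those that differed numbered 1 (quisinostat versus romidepsin), 2 (mivebresib versus romidepsin) and 3 (mivebresib versus quisinostat). For romidepsin, quisinostat and mivebresib in turn, that table gave 0, 2 and 0 partners lower and 0, 1 and 0 higher, 12, 21 and 9 G1/S genes lower, 5, 15 and 6 G2/M genes lower, and 2, 0 and 2 G1 regulators lower and 1, 1 and 0 higher. The cause was not tested. With library size alone, upper-quartile factors or a mean CPM of at least 5, 1 of the 10 genes (E2F5) was higher with romidepsin. Library size alone gave 1 G1/S gene higher with quisinostat, and limma-voom, upper-quartile factors, a mean CPM of at least 5 and the replicate block each gave 1 higher with mivebresib. Only the 4 libraries compared gave 3 partners and 2 G1 regulators lower with romidepsin, and a mean CPM of at least 5 also gave 2 of the latter. At an adjusted p below 0.01, 3 partners and 2 G1 regulators were lower with romidepsin, 1 partner and 3 regulators higher with quisinostat, and 1 regulator higher with mivebresib. Over all genes, the quantile-normalized table called 532 lower and 837 higher with romidepsin, 1395 and 1698 with quisinostat, and 1618 and 1509 with mivebresib, against 2377 and 2293, 3793 and 4231, and 3628 and 3342. Only the 4 libraries compared called 1116 and 1427 with romidepsin, and without romidepsin replicate 1 or 2 it was 985 and 1201, or 1223 and 1384. A mean CPM of at least 5 left out E2F8 and tested 10701 genes, of which it called 2729 higher with quisinostat. An adjusted p below 0.01 gave 1200 and 1248 with romidepsin and 2156 higher with mivebresib. The median log2 FC of all genes was 0.06, 0.20 and 0.03 (romidepsin, quisinostat, mivebresib) with library size alone and 0.07, 0.13 and 0.05 with upper-quartile factors.

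With each library left out in turn, which leaves 1 in its group and assumes that it varies like the others, the genes among the 10 higher with romidepsin numbered 0 to 1 and those that differed between mivebresib and romidepsin 5 to 9. The partners lower with romidepsin numbered 3 to 6, and those higher with quisinostat and with mivebresib 1 to 2. The G1/S and the G2/M genes higher with mivebresib each numbered 0 to 1, the G1 regulators lower with romidepsin 2 to 6 and those higher with quisinostat 3 to 7.

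The differences that changed sign were all short of the threshold in the values reported. E2F4 for quisinostat versus romidepsin was 0.10 with library size alone, 0.0155 with upper-quartile factors and 0.00559 with a mean CPM of at least 5. FOXM1 for mivebresib versus quisinostat was -0.13, -0.0345 and -0.0173 under the same 3 settings, and E2F7 for romidepsin versus control was 0.003 with upper-quartile factors. With a library left out, E2F4 ran from -0.093 to 0.216 (mivebresib versus control) and from -0.115 to 0.0114 (quisinostat versus romidepsin), E2F7 from -0.179 to 0.0467 (romidepsin versus control), E2F8 from -0.455 to 0.0716 and LIN9 from -0.0872 to 0.265 (both quisinostat versus romidepsin), and FOXM1 from -0.0161 to 0.121 (mivebresib versus quisinostat).

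Same-numbered libraries did not deviate together (r of -0.162 to 0.158 over 6 pairs of groups), so the replicate numbers were not taken to pair samples. The replicate block kept the direction and call of all 60 single differences of the 10 genes and gave 1 G1/S gene higher with mivebresib, against 0 without it.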
